A study of Mus musculus with 36 samples.

Results

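The comparison is the RNA response of C57BL/6 mouse liver to phenobarbital (PB): 5 livers of PB mice against 4 livers of vehicle mice. The libraries were chosen by their labels for assay, strain and treatment, and are 9 of the 18 RNA libraries and of the 36 samples in the series, which also holds RNA of B6C3F1 mice and DNase I hypersensitivity libraries of both strains. All 9 mice were males, bought at 9 to 11 weeks of age, and each library came from the liver of a separate animal. PB mice drank water with 0.05% (wt/vol) PB for 91 days, and vehicle mice drank water without PB for the same time. Reads counted on genes were 27614982, 26180709, 24375744 and 25069069 in vehicle mice Vh_1021, Vh_1022, Vh_1023 and Vh_1025, and 27812536, 27359641, 24710563, 25020848 and 23766046 in PB mice PB_2021, PB_2022, PB_2023, PB_2024 and PB_2025, the order used for the values of single mice throughout.

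PB is a barbiturate and the classic inducer of drug metabolism in rodent liver. It acts through the constitutive androstane receptor (CAR, gene Nr1i3), a nuclear receptor of hepatocytes that PB activates indirectly, by blocking signals of the epidermal growth factor receptor, after which CAR enters the nucleus, pairs with the retinoid X receptor and binds regulatory DNA. Known CAR targets work in the successive steps of drug clearance: cytochrome P450 enzymes oxidize a compound, transferases attach sulfate, glucuronate or glutathione, and transporters carry the product out. Long exposure to PB enlarges the liver and promotes tumors in susceptible mouse strains.

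Levels are in CPM, the reads of a gene per 1000000 reads of its library after scaling between libraries; for a level comparison between genes, CPM is divided by the kilobases of exon of the gene. The hepatocyte label was checked first. The 14 hepatocyte markers summed to 124899, 127908, 124407 and 110566 CPM in the vehicle mice and to 110535, 115124, 109929, 109672 and 104764 CPM in the PB mice, with albumin (Alb) the most abundant per length at 26024 CPM per kilobase. Every liver was thus rich in hepatocyte RNA, and Vh_1021 to Vh_1023 stood above all PB mice. In bulk tissue, fewer cells of a type and less RNA per cell cannot be told apart. Summed markers of liver endothelium were 845 ± 38.2 CPM (mean ± SD over mice) in vehicle and 909 ± 36.5 CPM in PB mice, those of stellate cells and fibroblasts 609 ± 51.6 and 541 ± 53.1, and those of Kupffer cells and macrophages 399 ± 79.1 and 393 ± 108. The cholangiocyte markers in the table (8 of 12) summed to 48.4 ± 4.12 and 49.4 ± 5.17 CPM. The 7 lymphocyte and granulocyte markers in the table (of 16) gave 24.0 ± 3.32 and 23.5 ± 7.09 CPM. Under the rule given next, limma and edgeR called 0 of these marker genes; at an unadjusted p of 0.05, 1 hepatocyte marker was higher and 7 lower, 4 endothelial markers were higher, 2 stellate cell and fibroblast markers lower, and 1 lymphocyte or granulocyte marker was higher and 1 lower.

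Of 13838 genes tested, 121 were called (0.874%), 117 higher in PB mice (0.845%) and 4 lower (0.0289%). Log2 fold change (log2 FC) is the PB mean minus the vehicle mean of log2(CPM + 0.1), given with its standard error; a gene was called at |log2 FC| of at least 0.58, about 1.5-fold, and a Benjamini-Hochberg false discovery rate (FDR) of at most 0.01 in limma. The added 0.1 makes log2 FC understate the change of genes near 0 CPM. Among the risers, 37 had a log2 FC of at least 2, 38 lay between 1 and 2, and 42 (35.9%) were under 1. Their median was 1.43, a 2.69-fold rise, beside a median of -0.01 over all genes tested. In 119 of the 121 called genes the PB and vehicle mice did not overlap; over all genes tested, groups did not overlap in 1057 (7.64%). The exceptions are Abcb1a and Slc13a2, the latter named after its values were seen and not called by edgeR. The 117 risers took 1.71, 1.57, 1.85 and 1.69% of the summed CPM of the vehicle livers and 4.14, 4.45, 3.74, 4.15 and 4.52% of the PB livers. At an unadjusted p of 0.05, 999 genes (7.22%) were higher and 712 (5.15%) lower.

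**Figure D1:**
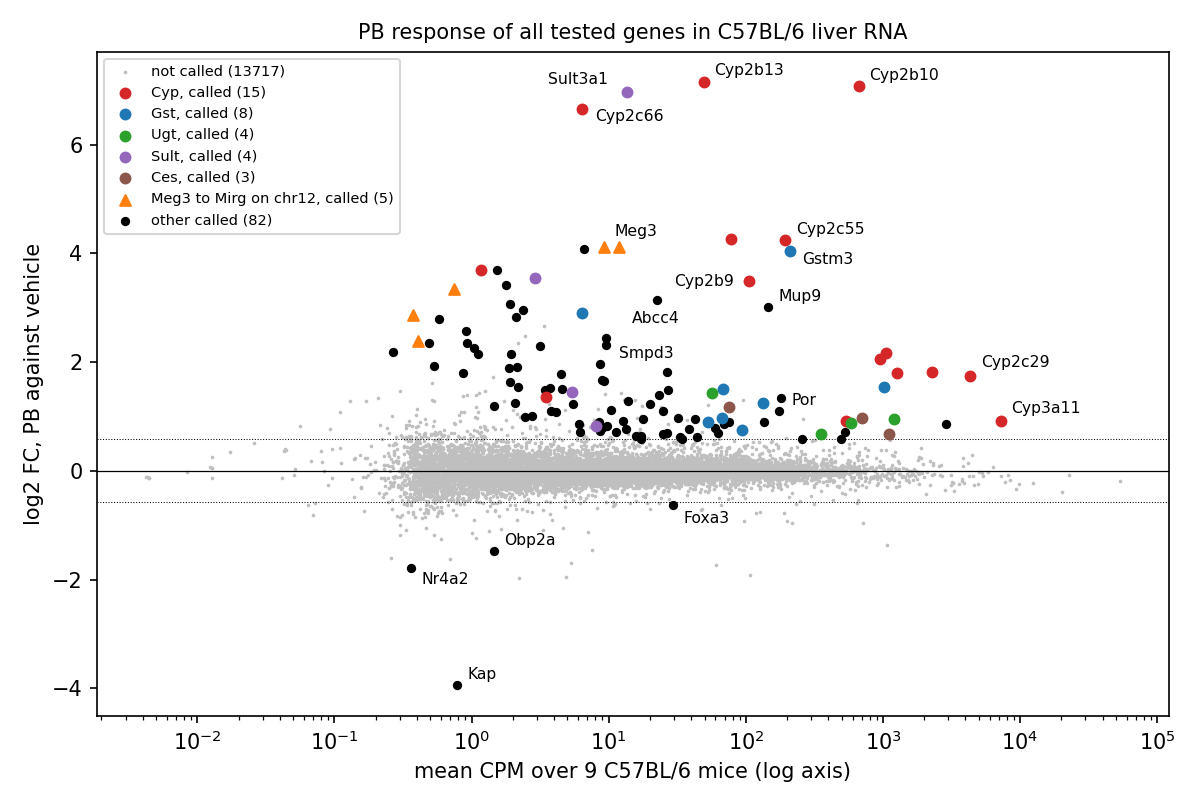
Each point is a gene: mean CPM over the 9 C57BL/6 mice (horizontal, log scale) against log2 FC of PB over vehicle (vertical), with called genes colored by family or locus, other called genes in black and the rest in grey. The 117 risers reach a log2 FC of 7.16 (Cyp2b13), while 4 genes were called lower.

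The family most tied to PB, Cyp2b, held the 2 largest log2 FC on this scale; by ratio of means, Cyp2c66 and Sult3a1 rose more. Cyp2b10, the P450 by which CAR activation is usually read, was at 7.92, 8.35, 7.53 and 11.1 CPM in the vehicle mice and 897, 1489, 1063, 1196 and 1323 CPM in the PB mice. The groups are far apart, and PB_2021 has the lowest and PB_2022 the highest PB value. Its mean went from 8.73 ± 1.62 to 1194 ± 229 CPM, 137-fold, with log2 FC 7.07 ± 0.28 and FDR 6.72e-10. Cyp2b13, a P450 of female mouse liver, was at 0.321, 0.531, 0.402 and 0.861 CPM in the vehicle mice and 119, 78.9, 116, 72.0 and 58.0 CPM in the PB mice. The vehicle mice are near 0, every PB mouse is far above them, PB_2021 and PB_2023 are highest, and log2 FC was 7.16 ± 0.39 (FDR 1.55e-08). Cyp2b9, the other female-predominant member, was at 16.4, 20.4, 10.1 and 16.7 CPM in the vehicle mice and 193, 185, 213, 146 and 143 CPM in the PB mice, a log2 FC of 3.49 ± 0.50 (FDR 7.83e-04). It started higher than Cyp2b13 in vehicle mice and its PB mice differ little, with PB_2024 and PB_2025 lowest. Its standard error also takes in the B6C3F1 vehicle mice, which ran from 2.83 to 31.4 CPM. Per length, the PB means were 636 CPM per kilobase for Cyp2b10, 84.6 for Cyp2b9 and 41.3 for Cyp2b13, against vehicle means of 4.65, 7.64 and 0.246. These were all 3 Cyp2b genes of the table.

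Cyp2c, the largest P450 subfamily of mouse liver, which oxidizes drugs, steroids and arachidonic acid, split into risers and genes that did not pass the test: 7 of 15 tested were called higher, with a list median of 0.13. Cyp2c55, an arachidonic acid hydroxylase, was at 14.0, 17.4, 23.3 and 14.7 CPM in the vehicle mice and 243, 449, 243, 332 and 415 CPM in the PB mice. The groups are far apart, with PB_2022 and PB_2025 highest and PB_2021 and PB_2023 lowest (log2 FC 4.25 ± 0.20, FDR 4.29e-09). Cyp2c66 was nearly silent without PB, at 0.0357, 0, 0 and 0 CPM in the vehicle mice and 7.08, 11.8, 7.04, 15.9 and 15.9 CPM in the PB mice. A single read in Vh_1021 against 1498 reads in the PB mice gives a ratio of 1196 (95% interval 214 to 47285, counting error only), and log2 FC was 6.66 ± 0.23. Cyp2c65, its neighbor and close relative, went from a vehicle mean of 0.0589 to 2.04 CPM; the transcript of Cyp2c66 is 96.0% identical to it, so reads may be divided wrongly between them. The pseudogene Cyp2c53-ps, between Cyp2c66 and Cyp2c29, was at 5.92, 6.18, 7.49 and 8.53 CPM in the vehicle mice and 118, 142, 121, 140.1 and 157 CPM in the PB mice, with all PB mice close together (log2 FC 4.26 ± 0.16).

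The abundant Cyp2c genes rose less on the log scale. Cyp2c29, with the highest PB mean per length of the subfamily, was at 1751, 1747, 2051 and 1949 CPM in the vehicle mice and 6554, 7080.5, 6274, 5464 and 6198 CPM in the PB mice. Mice of a group lie close together, the groups are well apart, and the PB mean per kilobase was 3456 CPM against 1026 CPM in vehicle mice (log2 FC 1.75 ± 0.08). Cyp2c50 was at 1022.3, 798, 1011 and 980.0 CPM in the vehicle mice and 3089, 3612, 3019, 3408 and 3642 CPM in the PB mice (log2 FC 1.82 ± 0.10). Cyp2c54 and Cyp2c37, close in sequence to Cyp2c50, had log2 FC 2.17 ± 0.15 and 2.06 ± 0.16. The transcripts of Cyp2c37 and Cyp2c50 are 95.8% identical, so the division of reads among them is uncertain. The other 8 members did not pass. Cyp2c40 was at 1.46, 1.21, 1.61 and 1.60 CPM in the vehicle mice and 0.526, 0.611, 1.07, 0.546 and 0.415 CPM in the PB mice, with every PB mouse below every vehicle mouse (log2 FC -1.15 ± 0.32, FDR 0.0576 in limma over all 18 RNA samples); fitted on the 9 C57BL/6 samples alone, it was called lower. Cyp2c67 had -0.78, Cyp2c69 -1.05, Cyp2c68 -0.26 and Cyp2c70 -0.11 as log2 FC. Cyp2c38, Cyp2c39 and Cyp2c44 lay between -0.07 and 0.13.

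Other P450 genes rose as well. Cyp2a5, the coumarin 7-hydroxylase of pericentral hepatocytes, was at 482, 463, 649 and 538 CPM in the vehicle mice and 1685, 1876, 1654, 1797 and 2241 CPM in the PB mice. PB_2025 was highest and the groups are well apart, with a 3.47-fold higher mean (FDR 5.35e-06). Cyp2a4, a steroid hydroxylase whose transcript is 98.2% identical to that of Cyp2a5, had log2 FC 1.36 ± 0.22, though its own reads may in part come from that copy. Cyp3a11, the main mouse counterpart of human CYP3A4, was at 4894, 4374, 5661 and 4427 CPM in the vehicle mice and 9487, 9572, 6989, 9831 and 9929.8 CPM in the PB mice. Among its PB mice PB_2023 stands well below the others but above every vehicle mouse (log2 FC 0.92 ± 0.12). Cyp1a2, a target of the aryl hydrocarbon receptor that oxidizes caffeine and arylamines, rose from 358 ± 56.4 to 677 ± 131 CPM, and its call was lost without PB_2022, PB_2025, Vh_1021 or Vh_1022. It was the only riser of the 21 tested genes of Cyp1 and Cyp2e to Cyp2j, of which 7 were higher and 3 lower at an unadjusted p of 0.05, and 2 were higher at an FDR of at most 0.01 without the size rule. Cyp2e1, the ethanol-oxidizing P450, was at 6213 CPM in vehicle and 6526 CPM in PB mice (log2 FC 0.07 ± 0.12). Over all 75 Cyp genes tested, 15 were called higher (20%), 13 of them among the 47 Cyp2 genes (27.7%). Together the 75 genes made up 2.75 ± 0.149% of the summed CPM in vehicle and 4.54 ± 0.275% in PB mice.

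P450 enzymes need electrons, passed on by NADPH-cytochrome P450 reductase (Por), and heme. Por was at 93.5, 83.5, 101 and 109 CPM in the vehicle mice and 204, 269, 198, 261 and 297 CPM in the PB mice. The lowest PB mouse, PB_2023, is well above the highest vehicle mouse, Vh_1025 (log2 FC 1.34 ± 0.16, FDR 8.80e-05). Cytochrome b5 (Cyb5a), another electron donor, had log2 FC 0.57 ± 0.06 with FDR 2.68e-06, and Pgrmc1, a heme-binding partner of P450s, 0.43 ± 0.05 with FDR 4.29e-06; both passed the FDR and missed the size rule. Of the 12 tested genes of heme synthesis and breakdown, limma called none. At an unadjusted p of 0.05, 3 were higher and 1 lower, and edgeR called 0. Alas1, the first and rate-limiting enzyme of heme synthesis, was at 89.8, 263, 75.6 and 337 CPM in the vehicle mice and 492, 370.1, 262, 279 and 198 CPM in the PB mice. Vh_1022 and Vh_1025 lie among the PB mice, and Vh_1021 and Vh_1023 lie below them (log2 FC 0.96 ± 0.47, FDR 0.446). Biliverdin reductase B (Blvrb) had log2 FC 0.32 ± 0.06 and FDR 0.00145, under the size rule.

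Of the 33 tested phase I oxidoreductases and hydrolases outside the P450s, 3 were called higher. Aldh1a1, which oxidizes retinal and other aldehydes, was at 2095, 1844, 2005 and 1961 CPM in the vehicle mice and 3517, 3806, 3581, 3325 and 3841 CPM in the PB mice, tightly grouped in both treatments (log2 FC 0.87 ± 0.05, FDR 5.43e-10). Microsomal epoxide hydrolase (Ephx1), which opens reactive epoxides made by P450s, rose from 383 ± 46.2 to 576 ± 36.5 CPM (log2 FC 0.59 ± 0.08); it sits at the size limit, and the call was lost without PB_2021, PB_2022, Vh_1021 or Vh_1022. Akr1b7, an aldose reductase-like enzyme, was at 0.428, 0.190, 0.322 and 0.274 CPM in the vehicle mice and 0.736, 1.94, 1.75, 2.77 and 1.66 CPM in the PB mice. PB_2021 was the lowest of the PB mice, nearest to Vh_1021 (log2 FC 2.14 ± 0.44, FDR 0.00867), and leaving out any mouse but PB_2021 ended the call; it was also lost in edgeR and with 0.5 or 1 added to CPM in place of 0.1. Carboxylesterases, which cleave ester drugs and lipids, had 3 of 14 genes called higher: Ces2c (1.18), Ces2a (0.97) and Ces1d (0.68), with the list median at 0.05.

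Glutathione S-transferases had the most risers of the conjugation lists by count, with 8 of 21 tested genes higher, 0 lower and a median log2 FC of 0.44. Gstm3 was at 19.3, 18.4, 27.1 and 19.3 CPM in the vehicle mice and 217, 457, 276, 354 and 496 CPM in the PB mice. PB_2022 and PB_2025 were the highest and PB_2021 the lowest, still far above the highest vehicle mouse, Vh_1023 (log2 FC 4.04 ± 0.34, FDR 3.76e-06). Gstm1, an abundant class mu enzyme, was at 438, 493, 545 and 488 CPM in the vehicle mice and 1436, 1529, 1303, 1358 and 1559 CPM in the PB mice (log2 FC 1.55 ± 0.09). The groups are narrow and far apart. Gsta1 went from 1.32 ± 0.386 to 10.5 ± 2.37 CPM and Gstm2 from 32.9 ± 3.04 to 96.0 ± 22.9 CPM. The transcript of Gsta1 has a copy, Gm3776, at 99.5% identity, so its level is uncertain, and the Gstm2 call ended when any mouse but PB_2021 was left out. The other 4 risers, named after their values were seen, were Gstt3 (1.24), Gstm4 (0.97), Gsta2 (0.89; a copy, Gm10639, is 98.2% identical) and Gsta4 (0.75). Glutathione synthesis and the targets of NRF2, the regulator of the oxidative stress response, had 0 of 19 genes called by limma and by edgeR, with 9 higher and 1 lower at an unadjusted p of 0.05 and a median of 0.18. Its most abundant members, glutathione peroxidase 1 (Gpx1) and peroxiredoxin 1 (Prdx1), had log2 FC 0.10 ± 0.06 and 0.21 ± 0.04.

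UDP-glucuronosyltransferases and the enzyme that makes their sugar donor had 5 of 20 tested genes higher, with a median of 0.32. Ugt1a1, the bilirubin-conjugating enzyme, was at 283, 269, 261 and 248 CPM in the vehicle mice and 436, 464, 396, 404 and 429 CPM in the PB mice. Mice differ little within a treatment and do not overlap between them (log2 FC 0.68 ± 0.06, FDR 1.75e-07). Ugt1a9 rose from 29.3 ± 7.08 to 78.1 ± 11.1 CPM, and Ugt2b34 and Ugt2b35 had log2 FC 0.95 ± 0.09 and 0.89 ± 0.12. Ugdh, which makes UDP-glucuronate and was named after its values were seen, had 0.59 ± 0.10, a call lost without PB_2025, Vh_1022 or Vh_1023. The Ugt1a genes share their last exons, and Ugt1a1 and Ugt1a9 have copies at 97.0% and 96.4% identity, which makes the split of reads among them uncertain. Sulfotransferases had 4 of 11 tested genes higher and a median of 0.44. Sult3a1, a female-predominant enzyme, was at 0.0357, 0.0379, 0.121 and 0.117 CPM in the vehicle mice and 33.4, 20.8, 35.2, 7.64 and 25.0 CPM in the PB mice. From 8 vehicle reads in all, every PB mouse is far above the vehicle mice, with PB_2024 far below the others (log2 FC 6.97 ± 0.42, FDR 4.43e-09). The estrogen sulfotransferase Sult1e1 was at 0.178, 0.266, 0.402 and 0.196 CPM in the vehicle mice and 0.946, 3.52, 4.58, 7.80 and 8.39 CPM in the PB mice. Its PB mice are widely spread, with PB_2021 lowest and PB_2025 highest (log2 FC 3.55 ± 0.65); edgeR did not call it, and leaving out any mouse but PB_2021 ended the call. Sult2a7 and Sult1c2 had 1.45 ± 0.30 and 0.82 ± 0.14. Among the fits that left out 1 mouse, the Sult2a7 call was kept only in those without PB_2024 or PB_2025.

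**Figure D2:**
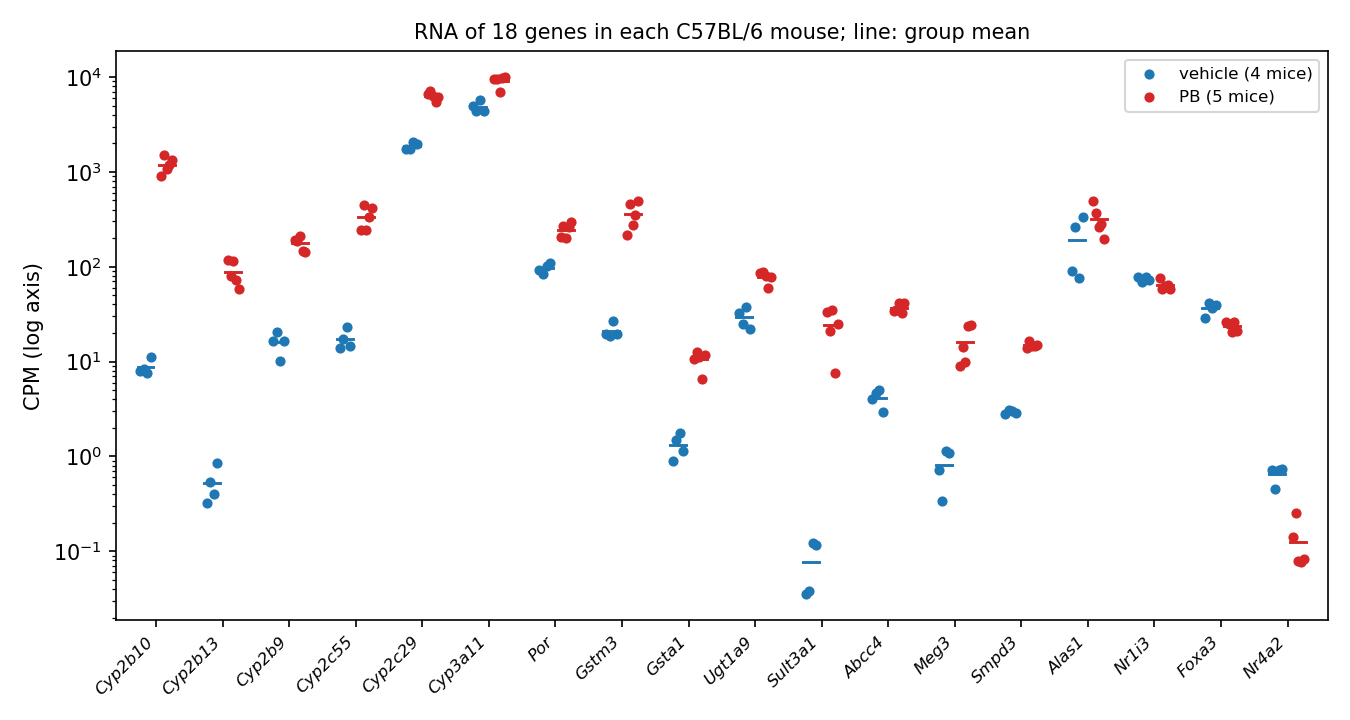
CPM (vertical, log scale) of 18 genes in each of the 4 vehicle mice (blue) and 5 PB mice (red), with lines at group means. Cyp2b10 lies at 7.53 to 11.1 CPM in vehicle mice and 897 to 1489 CPM in PB mice, while Nr1i3 overlaps between the groups.

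Hepatobiliary and drug transporters had 4 risers among 25 tested genes, and a list median of -0.00, near the all-gene median. Abcc4 (MRP4), which exports conjugates across the basolateral membrane into blood, was at 4.07, 4.67, 4.99 and 2.93 CPM in the vehicle mice and 33.8, 35.0, 41.2, 32.8 and 41.4 CPM in the PB mice. Replicates PB_2023 and PB_2025 are highest, and every PB mouse is far above the vehicle mice (log2 FC 3.14 ± 0.22, FDR 1.76e-07). Abcc3 (MRP3), another basolateral exporter, rose from 391 ± 32.9 to 639 ± 45.2 CPM. The bile acid importer Slc10a2 had log2 FC 0.62 ± 0.12 and the drug efflux pump Abcb1a 0.86 ± 0.18. PB_2024, at 4.79 CPM, lies just below Vh_1023, at 4.83 CPM, for Abcb1a, and leaving out any mouse but PB_2024 or PB_2025 ended this call. The Slc10a2 call ended when any mouse but PB_2021 or PB_2024 was left out.

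The receptors that read foreign compounds, and their partners, were measured alongside. Limma and edgeR called 0 of these 13 genes, with 3 higher and 4 lower at an unadjusted p of 0.05. Nr1i3 (CAR) itself was at 78.3, 69.2, 77.3 and 73.1 CPM in the vehicle mice and 76.6, 58.7, 62.4, 64.3 and 58.5 CPM in the PB mice. The ranges overlap, and log2 FC was -0.22 ± 0.09 (FDR 0.318). The pregnane X receptor (Nr1i2) had 0.13 ± 0.06 and the retinoid X receptor alpha (Rxra) -0.14 ± 0.07. The aryl hydrocarbon receptor (Ahr) had 0.73 ± 0.20 with FDR 0.0746. Egfr, the receptor through which PB signals, was at 909, 1150.3, 854 and 930.2 CPM in the vehicle mice and 350.3, 569, 324, 789 and 546 CPM in the PB mice, every PB mouse under every vehicle mouse but widely spread, from PB_2023 to PB_2024 (log2 FC -0.97 ± 0.33, FDR 0.199). Ppara, the receptor for fatty acids that drives their oxidation, was at 360.5, 355, 344 and 362 CPM in the vehicle mice and 282, 252, 270.2, 272 and 215 CPM in the PB mice. All PB mice are below all vehicle mice; log2 FC -0.47 ± 0.09 with FDR 0.00326 passed the FDR and missed the size rule.

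Only 4 genes fell by the full rule. Kap, an androgen-regulated gene best known from kidney, was at 3.67, 0.721, 0.926 and 1.68 CPM in the vehicle mice and 0, 0, 0, 0 and 0 CPM in the PB mice. It had 0 reads in PB mice against 188 in vehicle mice, the most of them in Vh_1021. Nr4a2, an orphan nuclear receptor and early-response gene, was at 0.713, 0.455, 0.724 and 0.743 CPM in the vehicle mice and 0.140, 0.251, 0.0796, 0.0780 and 0.0831 CPM in the PB mice (log2 FC -1.78 ± 0.31, FDR 0.00113). Obp2a, a lipocalin, was at 1.57, 1.82, 2.13 and 3.76 CPM in the vehicle mice and 0.911, 0.934, 0.318, 1.05 and 0.665 CPM in the PB mice (log2 FC -1.47 ± 0.30). Foxa3, a forkhead factor that helps open chromatin at liver genes, was at 28.5, 41.7, 37.0 and 39.8 CPM in the vehicle mice and 26.3, 24.6, 20.5, 26.3 and 21.2 CPM in the PB mice; PB_2021 and PB_2024 come close to Vh_1021 (log2 FC -0.62 ± 0.11, FDR 0.00286). The calls of Foxa3 and Obp2a were lost without PB_2023 or PB_2025 or Vh_1022, Vh_1023 or Vh_1025, and that of Kap was lost in edgeR and without any mouse but Vh_1022 or Vh_1023.

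Without the size rule, 18 genes were lower at an FDR of at most 0.01 (0.13%) and 203 higher (1.47%). Beyond the 4 above and Ppara, the 18 include, named with their values seen, complement C9 (-0.54), the inter-alpha-trypsin inhibitor heavy chains Itih3 (-0.53) and Itih2 (-0.30), and Serpina3n (-0.29). By the same FDR, the acute phase list had 3 genes higher and 2 lower, and the Serpina family 2 higher and 1 lower. Itih3 was at 797, 808, 756 and 835 CPM in the vehicle mice and 543, 580.4, 494, 633 and 516 CPM in the PB mice. Over all genes tested, groups did not overlap in 1057 (7.64%). Every PB mouse is below every vehicle mouse in each of the 18 genes, which were picked by FDR on these same values. Also here are Etnppl (-0.40), which breaks down phosphoethanolamine, the sterol carrier protein Scp2 (-0.26), and lactate dehydrogenase A (Ldha, -0.28). At an FDR of at most 0.05 with the size rule, 14 genes were lower (0.101%). The 10 added include, named with their values seen, the neurotrophin receptor Ntrk2 (-1.96), the class I gene H2-Q1 (-1.95) and the Wnt inhibitor Notum (-0.58).

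The 47 gene lists counted held 54 of the 121 called genes. On 20 lists at least 1 gene was called, always higher; the other 27 had none. Those 27 lists, set apart because limma called 0 of their members, held 467 distinct genes, of which edgeR also called 0. Of the 467, 47 were higher and 50 lower at an unadjusted p of 0.05, and the median log2 FC was 0.00. Over all genes tested, 7.22% were higher and 5.15% lower at that p. Sterol synthesis had a median of 0.19 over 24 genes, with HMG-CoA synthase (Hmgcs1) at 0.29 ± 0.31. Fatty acid and triglyceride synthesis, 31 genes, had 0.05, with fatty acid synthase (Fasn) at 0.10 ± 0.33 and stearoyl-CoA desaturase (Scd1) at -0.39 ± 0.28. Fatty acid oxidation, 32 genes, had a median of -0.08. Glucose and glycogen metabolism, 25 genes, had -0.06, and Fbp1 of gluconeogenesis -0.26 ± 0.07. The 26 genes of the urea cycle and amino acid breakdown had -0.08, with 0 higher and 7 lower at an unadjusted p of 0.05, and Cps1, the entry enzyme of the cycle, at -0.17 ± 0.08. Methionine, cysteine and taurine metabolism, 17 genes, had -0.11 with 1 higher and 6 lower, and betaine-homocysteine methyltransferase (Bhmt) at -0.42 ± 0.14. Interferon-stimulated genes, 26, had 0.18, with 9 higher and 1 lower at that p. The bile acid synthesis list, 17 genes, had a median of -0.00, with 1 higher and 2 lower.

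Zonation divides hepatic work along the lobule, from the portal vein to the central vein. Of 21 pericentral genes 3 rose, Cyp2a5, Cyp1a2 and the ammonium transporter Rhbg, and the list median was -0.10. At an unadjusted p of 0.05, 6 pericentral genes were higher and 3 lower. Rhbg was at 12.2, 10.7, 9.94 and 13.3 CPM in the vehicle mice and 17.2, 20.0, 24.3, 23.1 and 29.1 CPM in the PB mice (log2 FC 0.96 ± 0.16). Its PB mice run from PB_2021, lowest, to PB_2025, highest, and part of its transcript is 99.9% identical to Gm38392, so some reads may belong there. Of 21 periportal genes 0 were called by limma or edgeR, with 2 higher and 5 lower at an unadjusted p of 0.05. Wnt/beta-catenin components and targets had 0 of 33 called, 4 higher and 4 lower at that p and a median of -0.04, with beta-catenin (Ctnnb1) at -0.03 ± 0.04. TGF-beta and BMP signalling had 0 of 33 called, and 2 and 1 at that p. Cell cycle and DNA replication had 0 of 30 called by either tool, 3 higher and 0 lower at that p and a median of 0.11, with the cyclins Ccnd1 at -0.17 ± 0.14 and Ccnd2 at -0.12 ± 0.07. Growth arrest, DNA damage and apoptosis had 1 riser of 24, Gadd45b, a stress gene that CAR is known to induce, at 0.214, 0.417, 0.483 and 0.391 CPM in the vehicle mice and 1.89, 6.03, 2.03, 3.35 and 4.32 CPM in the PB mice. PB_2022 was highest and no PB mouse overlaps a vehicle mouse (log2 FC 2.83 ± 0.49, FDR 0.00229), while the call was lost in edgeR and without Vh_1021. The stress pseudokinase Trib3, the 1 riser among 22 genes of the unfolded protein and integrated stress responses, had 1.52 ± 0.31; it was not called by edgeR or without any mouse but PB_2024 or Vh_1021.

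Orosomucoids are acute phase carriers of drugs in plasma: Orm3 was at 2.89, 2.39, 2.46 and 2.89 CPM in the vehicle mice and 15.3, 15.1, 19.1, 12.4 and 13.4 CPM in the PB mice (log2 FC 2.45 ± 0.18) and Orm2 rose from 6.05 ± 0.420 to 13.7 ± 4.33 CPM, the only risers of 26 acute phase genes, whose median was -0.09 with 3 higher and 6 lower at an unadjusted p of 0.05. Dio1, the hepatic deiodinase that activates thyroxine, was at 99.4, 72.1, 90.2 and 106 CPM in the vehicle mice and 167, 161, 172, 151 and 198 CPM in the PB mice. Its groups do not overlap, and log2 FC was 0.90 ± 0.14 (FDR 9.42e-04). Among genes that differ between the sexes, 5 of 17 female-biased genes rose, Cyp2b13, Sult3a1, Sult1e1, Cyp2b9 and Cyp2a4, with a list median of 0.61; edgeR called 4. At an unadjusted p of 0.05, 8 were higher and 2 lower. In B6C3F1 the list median was -0.10, though the 5 risers were also called higher there. Their log2 FC in B6C3F1 was 8.07, 5.06, 5.29, 3.63 and 0.96, in the order named. Of 22 male-biased genes 0 were called by limma or edgeR, with 2 higher and 5 lower at an unadjusted p of 0.05 and a median of -0.12; the major urinary protein genes Mup3 and Mup7 had -0.21 ± 0.08 and -0.23 ± 0.52. Growth hormone signalling, which sets these sex differences, had 0 of 11 called, 0 higher and 2 lower at that p, with Igf1 at -0.34 ± 0.08 (FDR 0.0242). Smpd3, the neutral sphingomyelinase that makes ceramide, was at 2.78, 3.11, 2.98 and 2.89 CPM in the vehicle mice and 14.1, 16.3, 14.7, 14.7 and 15.1 CPM in the PB mice and was the only riser of 30 sphingolipid and phospholipid genes. Mice within each group are nearly equal (log2 FC 2.31 ± 0.14, FDR 5.43e-10).

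**Figure D3:**
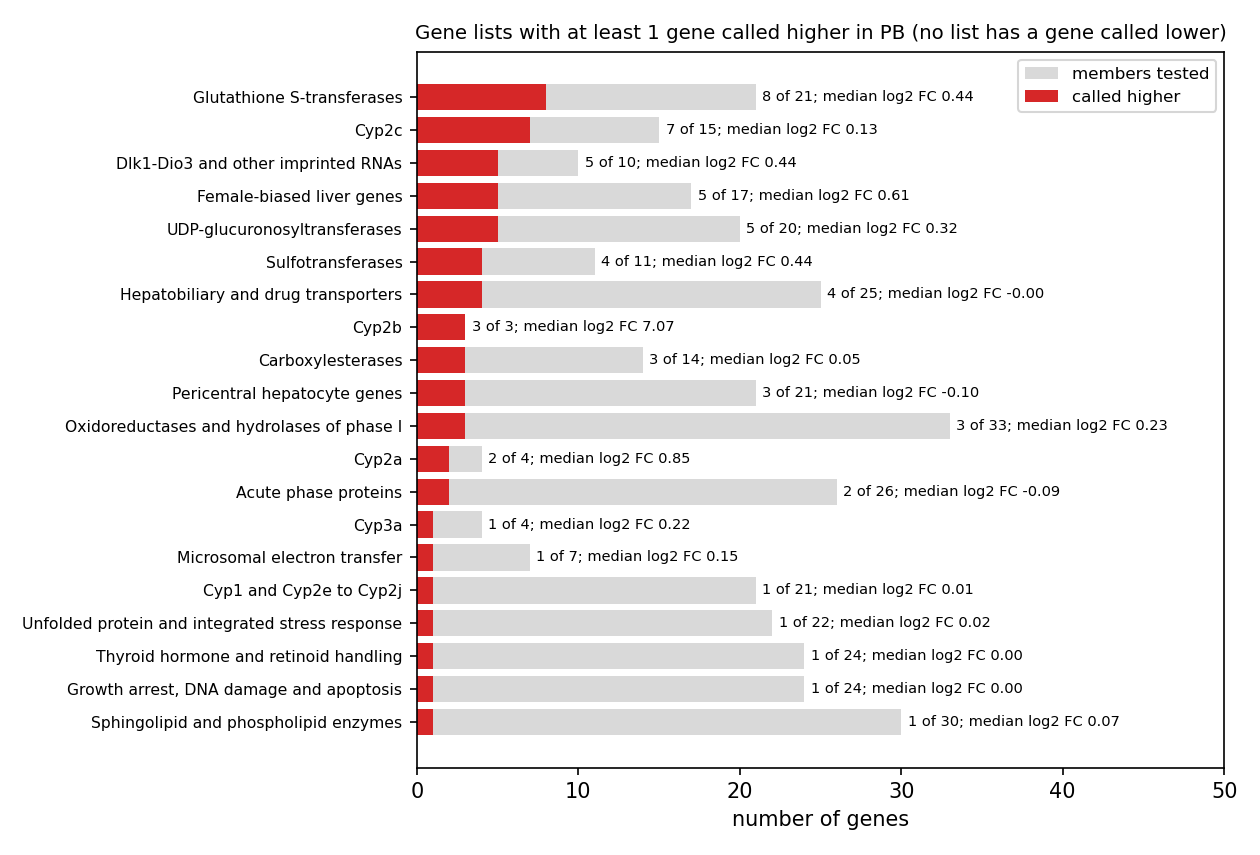
Tested members (grey) and genes called higher (red) of the 20 lists with a call, as numbers of genes (horizontal), each with its median log2 FC. Glutathione S-transferases have the most risers, 8 of 21, and Cyp2b the highest share, 3 of 3.

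Of the 10 tested genes on the list of Dlk1-Dio3 and other imprinted RNAs, 5 rose, 4 of them from the Dlk1-Dio3 region; the other 5 were not called, with 1 lower at an unadjusted p of 0.05. Meg3, the maternally expressed long noncoding RNA of the Dlk1-Dio3 region, was at 0.713, 0.341, 1.13 and 1.10 CPM in the vehicle mice and 8.90, 14.1, 9.83, 23.7 and 24.1 CPM in the PB mice. Rian, its neighbor and host of small nucleolar RNAs, was at 0.963, 0.645, 1.61 and 0.821 CPM in the vehicle mice and 11.7, 15.8, 10.1, 32.1 and 32.7 CPM in the PB mice. In both, PB_2024 and PB_2025 are the highest and no PB mouse comes near the vehicle mice (log2 FC 4.13 ± 0.52 and 4.11 ± 0.46). Rtl1, the paternally expressed retrotransposon-like gene overlapped by its antisense RNA, was at 0.0357, 0, 0 and 0.0391 CPM in the vehicle mice and 0.701, 0.826, 0.478, 1.95 and 2.62 CPM in the PB mice. Its 168 PB reads against 2 vehicle reads give a ratio of 67.1 (95% interval 18.3 to 558, counting error only). The annotated span of Rtl1 overlaps those of Meg3 and Rian on the other strand. Whether reads of these RNAs were counted for Rtl1 was not tested. Mirg, a microRNA host, had log2 FC 2.38 ± 0.41, and AF357359, a small RNA gene of the same region named after its values were seen, had 87 PB reads and 0 vehicle reads, at least 23.2-fold higher with 3 reads over the vehicle mice as the floor. Its 30 bases lie inside Rian on the same strand, so its reads cannot be told apart from those of Rian. Peg3, an imprinted zinc finger gene on another chromosome, named with its values seen, had 0.72 ± 0.14 and was lost without PB_2021, PB_2022, Vh_1022 or Vh_1023. Over all 117 risers, PB_2021 was the highest PB mouse in 10 and the lowest in 36, PB_2022 in 27 and 5, PB_2023 in 21 and 29, PB_2024 in 8 and 36, and PB_2025 in 51 and 11.

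With gaps of up to 500 kb between neighbors, 48 of the 120 called genes with coordinates (RefSeq, GRCm38.p6) lay in 18 clusters and 72 lay outside; the only faller among the 48 is Obp2a, in a cluster with Ptgds that holds 10 tested genes that were not called. How many genes would lie so close by chance was not tested. The 5 genes from Meg3 to Mirg span chr12:109540996-109749458 and were all the tested genes there, with AF357359 inside Rian. Cyp2b10, Cyp2b13, Cyp2b9 and Cyp2a4 span chr7:25897658-26315088, again with no other tested gene. Cyp2c55, Cyp2c65, Cyp2c66, Cyp2c53-ps and Cyp2c29 span chr19:39006940-39330713, and Cyp2c37, Cyp2c54 and Cyp2c50 span chr19:39992424-40113955. Between these runs lie Cyp2c39, Cyp2c38, Cyp2c67, Cyp2c68, Cyp2c40 and Cyp2c69, none of them called in the fit over 18 samples. All 4 tested Gstm genes at chr3:107963696-108045179 rose. At the Ugt1a locus 2 of 9 tested genes rose, and at the Gsta locus 3 of 5.

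**Figure D4:**
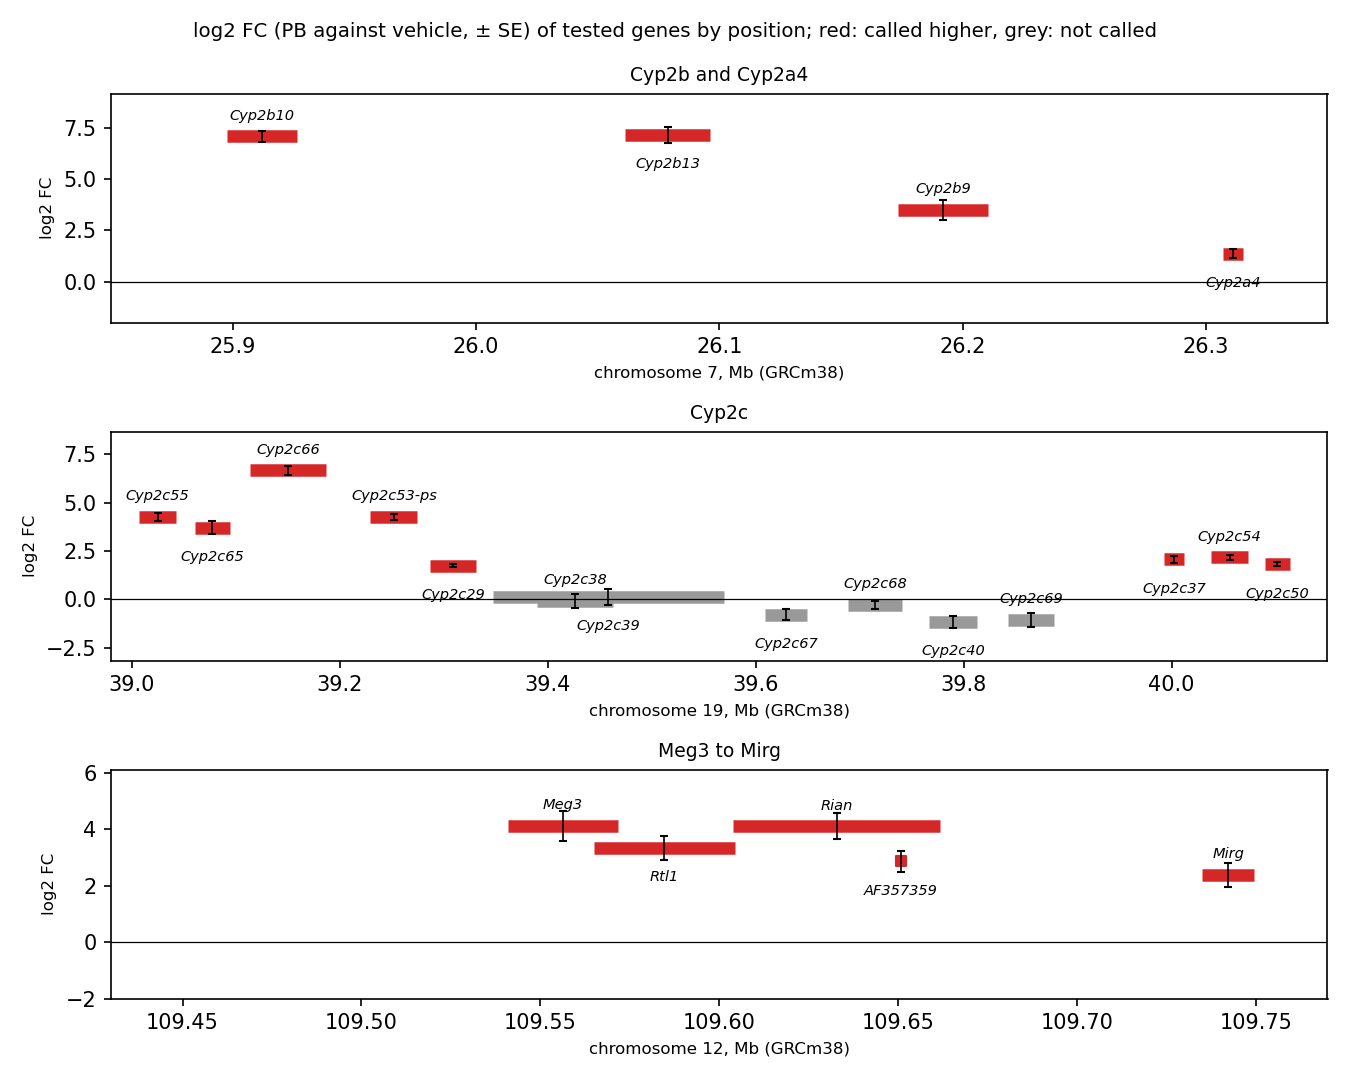
Log2 FC ± SE (vertical) of each tested gene by position in megabases (horizontal) at the Cyp2b, Cyp2c and Meg3 loci, called genes in red and others in grey. At the Cyp2c locus the called runs flank genes from Cyp2c39 to Cyp2c69 that were not called in the fit over 18 samples, with Cyp2c40 at -1.15.

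By gene family, taken as all tested genes with a shared symbol stem, 8 of 19 Gst genes (42.1%), 4 of 9 Sult (44.4%), 4 of 19 Ugt (21.1%) and 3 of 15 Ces genes (20%) were called higher. Of 272 solute carriers (Slc), 5 were (1.84%), and of 40 Abc transporters, 3. Serpina genes, protease inhibitors of plasma, had 0 of 20 called by limma and by edgeR, with 3 higher and 4 lower at an unadjusted p of 0.05. Of 15 Mup genes 1 was called, Mup9, named after its values were seen, at 23.2, 13.2, 33.8 and 42.9 CPM in the vehicle mice and 370.3, 103, 124, 238 and 356 CPM in the PB mice. Its transcript is 99.1% identical to that of Mup8, so the source of the reads is uncertain, and the 15 genes together made up 1.50 ± 0.181% of summed CPM in vehicle and 1.41 ± 0.267% in PB mice. In the fit on the 9 C57BL/6 samples alone, 17 of the 121 calls were lost, among them those of Mup9, Abcb1a, Cyp1a2, Sult1e1, Sult2a7, Slc13a2, Foxa3 and Obp2a. With 1 added to CPM in place of 0.1, those of Abcb1a, AF357359, Gadd45b, Kap, Mirg, Nr4a2, Rtl1, Slc13a2, Sult1e1 and Sult2a7 were among the lost.

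Open chromatin at the promoters of the called genes was measured in 9 livers with the same strain, treatment and mouse numbers, as DNase I hypersensitive sites (DHSs), in counts the authors normalized between libraries. Of 98170 DHSs, 360 were called between PB and vehicle (0.367%) under the size and FDR rule used for RNA. Within the 1000 bases before transcription starts, 98 of 120 called genes had a DHS, and 16 of their 131 DHSs were called, all higher (12.2%, against 20 of 13740, or 0.146%, for all tested genes). The 14 genes with one include Cyp2b10, Cyp2b13, Cyp2c50, Cyp2c53-ps, Cyp2c55, Gstm3, Sult3a1, Abcc4, Orm3, Nebl and Pnliprp1. The Cyp2b10 DHS at chr7:25897346-25897814 had 204, 182.9, 160.5 and 250.7 normalized counts in the vehicle mice and 1274, 1360, 1214, 1126 and 1149 in the PB mice. It went from a mean of 199.5 ± 38.4 to 1225 ± 95.6 normalized counts (log2 FC 2.63 ± 0.11, FDR 1.10e-13). That of Cyp2b13 at chr7:26060590-26060989 went from 26.1 ± 9.83 to 90.3 ± 17.4 (log2 FC 1.84 ± 0.26). Cyp2b9 had no DHS in this window, and the one within 5000 bases had log2 FC 0.08 ± 0.11.

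Since Cyp2b13 and Cyp2b10 have the 2 largest log2 FC and the 3 Cyp2b genes differ in vehicle level and in promoter DHS, their promoters are shown: 250 bases before to 50 after the start of the curated RefSeq transcript, GRCm38.p6, plus strand, 5′ to 3′, at chr7:25897408-25897707 for Cyp2b10, chr7:26061245-26061544 for Cyp2b13 and chr7:26173159-26173458 for Cyp2b9. The Cyp2b10 DHS covers its window, while the Cyp2b13 DHS lies wholly upstream of its window. Some predicted RefSeq transcripts of Cyp2b13 and Cyp2b9 start further upstream than the curated ones. Capitals mark AGGTCA, the half-site that nuclear receptors of this type bind (TGACCT on the other strand).
Cyp2b10: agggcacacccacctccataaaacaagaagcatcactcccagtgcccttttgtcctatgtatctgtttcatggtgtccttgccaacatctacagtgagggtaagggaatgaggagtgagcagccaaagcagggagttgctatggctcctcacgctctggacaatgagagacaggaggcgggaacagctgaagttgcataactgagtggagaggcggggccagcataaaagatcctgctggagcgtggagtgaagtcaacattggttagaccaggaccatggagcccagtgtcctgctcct
Cyp2b13: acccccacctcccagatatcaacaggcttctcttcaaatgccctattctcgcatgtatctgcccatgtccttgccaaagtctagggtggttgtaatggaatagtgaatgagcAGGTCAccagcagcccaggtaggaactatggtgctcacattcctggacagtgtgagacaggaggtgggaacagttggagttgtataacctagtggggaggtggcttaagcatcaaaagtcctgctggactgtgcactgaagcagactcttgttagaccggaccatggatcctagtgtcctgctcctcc
Cyp2b9: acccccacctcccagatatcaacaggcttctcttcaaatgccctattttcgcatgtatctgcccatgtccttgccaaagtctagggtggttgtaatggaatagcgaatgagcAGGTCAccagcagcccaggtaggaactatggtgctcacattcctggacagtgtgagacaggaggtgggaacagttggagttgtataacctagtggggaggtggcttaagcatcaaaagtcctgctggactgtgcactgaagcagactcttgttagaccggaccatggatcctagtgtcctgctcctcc
Cyp2b9 and Cyp2b13 share 298 of the 300 bases; the differences are T48C and C104T, with the Cyp2b9 base first, positions counted from 1 at the 5′ end, then the Cyp2b13 base. Cyp2b10 shares 223 aligned bases with either. AGGTCA starts at base 113 in Cyp2b9 and Cyp2b13 and is absent from the Cyp2b10 window. It was in 16.3% of 32851 RefSeq promoters and in 15.1% of 119 promoters of 93 called genes, on either strand. Sequence further upstream was not searched for the half-site. The paper also reports DHS changes under PB at upstream regulatory regions of Cyp2b10.

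Mice of the other strain, B6C3F1, received the same dose for the same time and share no sample with these 9. They were bought at 4 to 5 weeks of age from another supplier and treated in another study, so strain, age, supplier and study cannot be told apart in any difference between the strains. Of the 121 C57BL/6 calls, 119 had the same sign there and 98 were called there in that direction, 81.0% of the C57BL/6 calls and 35.4% of the 277 genes called in B6C3F1 (2%; 215 higher, 62 lower). The 117 risers had a median log2 FC of 1.43 in C57BL/6 and 1.47 in B6C3F1. Both strains were fitted together with a shared variance for each gene, so their calls are not independent of each other. The opposite signs were Kap, at 1.51 ± 0.76 in B6C3F1, and Slc22a29, an organic anion transporter family member named with its values seen, at -0.06 ± 0.24; its transcript is 96.8% identical to that of Slc22a27, so the source of its reads is uncertain. When the difference between the strain responses was tested in limma, 0 genes (0%) were called, with 1093 at an unadjusted p of 0.05; edgeR also called 0, with 1059. With 0.5 or 1 added to CPM in place of 0.1, 3 were called, and without PB_2024, 1. At a strain-difference FDR of at most 0.05, 2 of the 121 stood out, against 5 of all 13838 genes tested. Smpd3 rose more in B6C3F1 (3.63 ± 0.14; difference -1.32 ± 0.20, FDR 0.0197), and Myo9a, an unconventional myosin, rose more in C57BL/6. Myo9a was at 28.4, 31.0, 27.5 and 25.5 CPM in the vehicle mice and 53.3, 57.7, 52.8, 59.8 and 50.1 CPM in the PB mice (log2 FC 0.96 ± 0.08; B6C3F1 0.35 ± 0.08, difference 0.61 ± 0.11, FDR 0.0482).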

How the data were processed

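RNA-seq of liver from 18 mice (9 of them C57BL/6) was used as deposited. The authors made stranded, ribosome-depleted total RNA libraries, sequenced paired 76-base reads, aligned them with STAR 2.4.0f1, counted reads on gene exons by strand and scaled them with TMM in edgeR 3.12.1. The deposited values are a signal in CPM of 13862 genes; divided by their smallest step, 100% came out as whole reads within 0.01. For DNase, the authors deposited a signal of normalized counts over 98170 DHSs.

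Groups came from the labels. In R 4.3.3, limma 3.58.1 fitted log2(CPM + 0.1) over the 4 strain and treatment groups (trend and robust options), for 13838 genes with at least 0.4 CPM in 3 samples of a group. DHSs were fitted on log2(count + 1) in the 9 C57BL/6 livers. EdgeR 4.0.16 (quasi-likelihood on the recovered reads), other pseudocounts, filters, scaling and left-out mice were the alternatives. Python 3.11.15 with pandas 2.3.3 made the counts and blastn 2.17.0 the transcript comparisons. No 2 C57BL/6 RNA libraries of the same group held the same values: chi-square per degree of freedom between mice of a group was 11.4 to 33.1. The code was tested on simulated data.

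Named genes are Cyp2b10; the 15 largest risers and 15 largest fallers among called genes without overlap; the 5 called genes with the highest mean; up to 4 called members of each list, or its 2 most abundant where under 2 were called; members of the receptor, Cyp2b, Cyp2c and heme lists; and called genes with a strain-difference FDR of at most 0.05. Members and lists were chosen with earlier results of these data known.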

Additional observations from a re-analysis of the deposited data

Results flagged for a closer look

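Among the named genes and marker sums, 300 groups of mice were examined for a single value far from the rest (Dixon's gap over range), a rule that picks about 1 in 20 groups by chance; 17 (5.67%) were past its limit. Of these, 6 were in PB_2024. Its summed Kupffer cell and macrophage markers were 577 CPM, and its lymphocyte and granulocyte markers 36.1 CPM, both above the other PB mice; the part of these cells in any gene's value was not tested. The same mouse was lowest for Abcc3 (561 CPM), Cpox (159 CPM), Cyp2c67 (105 CPM) and Cyp2c68 (93.2 CPM). PB_2023 was lowest for Cyp3a11 (6989 CPM) and Hmox2 (22.2 CPM) and highest for Scd1 (27121 CPM). PB_2022 had Lrp6 at 176 CPM.

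Vh_1021 had Cyp2c39 at 3.53, Cyp2c66 at 0.0357, Nr1h4 at 168 and Ugt2b34 at 824 CPM. In Vh_1022, Nr4a2 was at 0.455 CPM. Vh_1023 had Gstm3 at 27.1 and Igf1 at 556 CPM. The strain difference of log2 FC (C57BL/6 minus B6C3F1) was listed for Smpd3, at -1.32, and Myo9a, at 0.61, since both passed an FDR of at most 0.05.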

How the results depend on the processing

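Counts of called genes moved most for the fallers. Against 4 genes lower, the 9 C57BL/6 samples alone gave 8, an FDR of at most 0.05 gave 14 and no minimum log2 FC gave 18; leaving out 1 mouse gave 2 to 7. Against 121 called and 117 higher, no minimum log2 FC gave 221 and 203, and leaving out a mouse gave 95 to 128 and 93 to 121. The strain difference, 0 genes, was 3 with a pseudocount of 0.5, 3 with a pseudocount of 1, and 0 to 1 without a mouse (1 without PB_2024). Promoter DHSs called, 16, were 32 with the window of 5000 bases on both sides. A looser rule or a wider window admits more by construction; otherwise the cause was not tested.

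EdgeR called 116 genes, 113 shared with the 121; the 9-sample fit 127, shared 104; the CPM 1 filter 118, shared 115; median centring 120, shared 119, with a small shift (all-gene median -0.02). Of the 121, 72 were called in all 16 fits and 84 without any 1 mouse; 37 were lost in at least 1 such fit. Of 2141 values of 134 named genes, 2028 kept their label, 108 were weaker (a call lost), 5 stronger (a call gained) and 0 reversed. Nr4a2 was lost under the CPM 1 filter and a pseudocount of 1, Krt4 under edgeR and both pseudocounts, Mirg and Rtl1 at a pseudocount of 1, and Kap under edgeR, the CPM 1 filter and both pseudocounts. No paired analysis was possible because PB and vehicle mice are different animals that share no numbers. Depth limits genes under 0.4 CPM most: 1 read is 0.0350 to 0.0415 CPM.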

Other observations

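Of the 121 called genes, 67 were on no list. Those named here were chosen after their values were seen, apart from Nebl, Krt4 and Pnliprp1. Nebl, a nebulin family protein of actin filaments, was at 0.820, 0.607, 0.443 and 0.352 CPM in the vehicle mice and 6.03, 14.2, 7.84, 11.3 and 18.1 CPM in the PB mice. Krt4, a keratin of stratified epithelia, was at 0.0357, 0.114, 0.0805 and 0.117 CPM in the vehicle mice and 0.736, 3.30, 1.63, 2.92 and 4.90 CPM in the PB mice, with PB_2021 the lowest PB mouse. The Krt4 call was lost in edgeR and with 0.5 or 1 added to CPM in place of 0.1. Krt79, its neighbor, had log2 FC 1.93 ± 0.31, lost under the CPM 1 filter. The membrane-anchored serine proteases Prss8 and Tmprss7 had 1.96 ± 0.21 and 2.79 ± 0.40 (the latter lost with 1 added to CPM), and the protease inhibitor Serpinb1a 1.83 ± 0.25, lost in the fit on the 9 C57BL/6 samples alone. Pnliprp1, a pancreatic lipase-related gene, was at 0.713, 0.0759, 0.0402 and 0.235 CPM in the vehicle mice and 2.38, 3.52, 2.83, 3.39 and 2.87 CPM in the PB mice; the 1 acinar marker in the table, Cela1, was at 23.3, 21.9, 26.3 and 24.9 CPM in the vehicle and 21.7, 23.1, 15.9, 26.9 and 31.8 CPM in the PB mice.

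Also among the 67 are Ndrg1, a stress-induced gene, at 11.9, 13.7, 13.3 and 13.0 CPM in the vehicle mice and 27.9, 43.9, 25.5, 39.6 and 52.8 CPM in the PB mice, and Wisp1, a secreted matricellular protein, with log2 FC 1.66 ± 0.28, lost without Vh_1021 or Vh_1023. The axon guidance receptor Robo1 had 0.97 ± 0.17 (lost without Vh_1025 and in the 9-sample fit), Gna14, a G protein alpha subunit, 1.24 ± 0.11, and the chemokine Ccl9 0.69 ± 0.08. The caudal-type homeobox gene Cdx4 had 61 reads in PB and 2 in vehicle mice, a ratio of 24.4 (95% interval 6.46 to 206, counting error only), and its call was lost under the CPM 1 filter, with 0.5 or 1 added to CPM, and without PB_2022, PB_2025, Vh_1022, Vh_1023 or Vh_1025. The fucosyltransferase Fut8 had 0.73 ± 0.09 and the glycogen-binding protein Stbd1 0.91 ± 0.17, and the latter call was lost in edgeR, in the 9-sample fit and without any mouse but PB_2024 or Vh_1023.

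Some genes that were not called, also named with their values seen, had PB mice set apart from vehicle mice. Hao2, a peroxisomal hydroxyacid oxidase, was at 0.571, 0.872, 0.563 and 0.743 CPM in the vehicle mice and 7.22, 5.60, 9.23, 2.11 and 3.37 CPM in the PB mice (log2 FC 2.67 ± 0.61, FDR 0.0250). Slco1a4, a drug and bile acid importer, had log2 FC 0.56 ± 0.13 with FDR 0.0263. Abcc2 (MRP2), the canalicular exporter of conjugates, had 0.39 ± 0.06 with FDR 1.02e-04, under the size rule.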
